A study of Marmota monax with 203 samples.

Results

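Liver biopsies from woodchucks (Marmota monax) on the low dose of recombinant woodchuck interferon-α (wIFN-α) were compared with time-matched biopsies from animals given placebo at week 3 of dosing. The members were all biopsies labelled as the fourth treatment week, which is week 3 when the first dose opens week 0, with repeat sequencing runs of a biopsy summed. They were 21 biopsies of 164 in the series, 9 from the wIFN-α group and 12 from the placebo group. The series followed adult animals chronically infected with woodchuck hepatitis virus (WHV), which they had been given as newborns, through 15 weeks of treatment and a follow-up. Every animal compared here, placebo animals included, carried WHV. The wIFN-α animals had received 20 µg subcutaneously 3 times a week since week 0 and were moved to 100 µg at week 7, and the control animals received placebo. The wIFN-α group at week 3 held 4 males and 5 females and the placebo group 6 males and 6 females. Animals are named by sex and number (M1002, F1013). M1004, which the study set aside as a likely natural clearance of WHV, was left out. The biopsies were taken 6 hours after a dose, so the comparison describes the liver shortly after an injection in animals already on repeated dosing.

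Type I interferons bind a receptor made of IFNAR1 and IFNAR2, whose kinases JAK1 and TYK2 phosphorylate STAT proteins; these join IRF9 in a complex that switches on interferon-stimulated genes. Those genes encode RNA sensors, enzymes that degrade or modify viral RNA, the ubiquitin-like protein ISG15 and its ligases, antigen-processing proteins, chemokines and death ligands, together with inhibitors such as USP18 and SOCS1 that damp the same receptor. Interferon-α is a long-standing therapy for chronic hepatitis B, and WHV in the woodchuck is a model of that infection. The study also measured members of this response by quantitative RT-PCR. The probes of 3 of its assays are shown because their genes differed widely in the size of the week 3 change, from ISG15 (37.3-fold) through TRAIL, the death ligand gene TNFSF10 (4.4-fold), to IRF9 (1.51-fold). They are the study's designed oligos, written 5′ to 3′ with no part marked, and their genome positions were not analysed here.
ISG15 probe: atggagctggaacagccagctta
TRAIL probe: ttgttggtccaaagattctgaa
IRF9 probe: aacaatggctgtagttcctcagaggg

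Poly(A) RNA was sequenced and reads were counted per annotated gene of a woodchuck transcriptome assembly, and counts are given here as CPM, counts per 1000000 reads on genes. Biopsies held 14261509 to 79459361 reads on genes, with a median of 25435437 in the wIFN-α group and 26702518 in the placebo group. Over 300 genes that differed steadily between animals, 21 of 21 week 3 biopsies were most like the other biopsies of their own animal. The 14 hepatocyte genes tested, led by ALB and the apolipoproteins, had a median log2 difference of 0.07 between the groups with none called. Some biopsies stood apart. F1013 of the wIFN-α group showed no induction of interferon genes, and its values are given beside each main result. Reads on 20 skeletal muscle genes made up 0.025% to 11.4% of the placebo libraries (median 0.753%, highest in F1021) and 0.026% to 2.78% of the wIFN-α libraries (median 0.044%, highest in F1018). Reads on 12 stellate cell and collagen genes made up 0.0292% to 1.44% of the placebo libraries (median 0.438%) and 0.037% to 0.345% of the wIFN-α libraries (median 0.0489%, highest in M1012). Reads on 11 skin genes stayed between 0.00652% and 0.0431% in every biopsy but that of M1012, a wIFN-α animal, where they reached 0.997%. The groups therefore differed in median muscle and collagen content, with overlapping ranges, and the part of this in the results below was not tested. For a check within animals, the change from week −3 to week 3 was also fitted with the animal as a block. In that baseline the biopsies of F1016 (placebo) and F1018 (wIFN-α) held 0.0398% and 0.0281% of reads on hepatocyte genes and 13.6% and 13.8% on muscle genes, against 11.4% to 20.5% and 0.0258% to 1.75% in the other animals, so the blocked fit is given with and without them. Sequencing lanes, taken as the lane number of the deepest run of each biopsy, were also unequally filled. By that rule L004 held 5 placebo biopsies and no wIFN-α biopsy. L007 held F1018 of the wIFN-α group alone, which also had a run in L004. The labels give M1007 (wIFN-α) and M1010 (placebo) the same barcode and the same lane number, L003. A lane number can therefore cover several physical lanes, and the fits with the lane adjust for that number only.

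**Figure D1:**
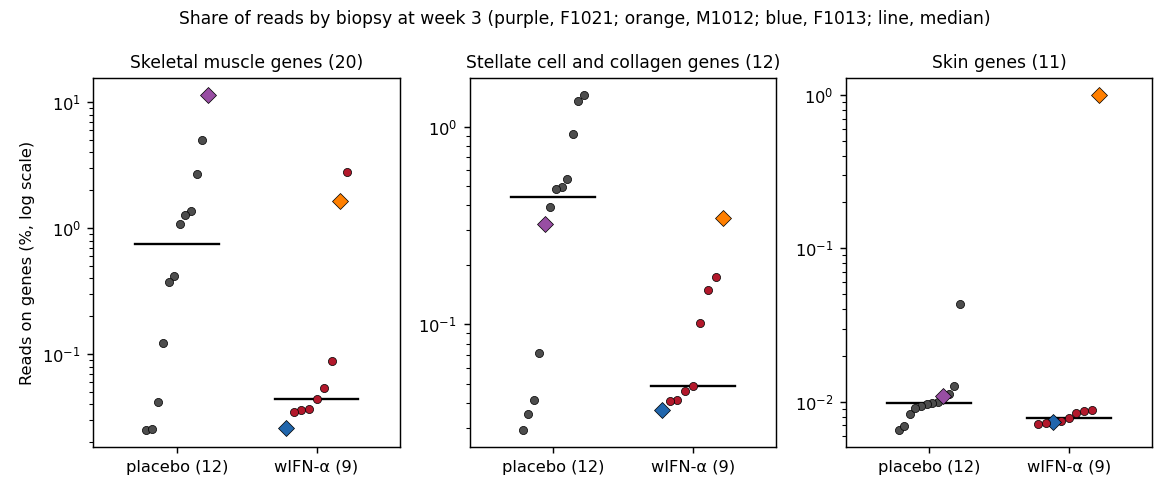
Percent of reads on genes (vertical axes, log scale) that fell on 20 skeletal muscle, 12 stellate cell and collagen and 11 skin genes in each week 3 biopsy, 1 point per animal, with the group median as a line. F1021 is the highest point for muscle (11.4%) and M1012 the highest for skin (0.997%); the placebo medians lie above the wIFN-α medians for muscle (0.753% and 0.044%) and collagen genes (0.438% and 0.0489%).

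Repeated 20 µg wIFN-α raised a large antiviral gene set in the liver. Of 15006 genes tested, 1618 (10.8%) differed by edgeR's quasi-likelihood test (adjusted p below 0.05, change of more than 1.5-fold), 1087 (7.24%) higher and 531 (3.54%) lower in the wIFN-α group. Without F1013 the same test called 1907 of 15062 genes (12.7%), 1237 higher (8.21%) and 670 lower (4.45%), and 1555 genes were called in both. Adding the lane number of the labels to the model left 915 genes higher (6.1%) and 432 lower (2.88%). The p-values measure the spread between animals.

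The 10 largest increases, among genes averaging 1 CPM or more, were in IFIT3, OASL, TMPRSS2, RSAD2, LOC100129473, USP18, IFIT2, ISG15, CXCL10 and DDX60, with log2 fold changes from 6.82 down to 5.16. IFIT3, which encodes a protein that binds viral RNA complexes with its family members, was at 9.29 CPM in F1013 and 687 to 2112 in the other 8 wIFN-α animals, against 6.88, 9.13 and 18.0 CPM (lowest, median, highest) in the placebo group. The 8 lay above every placebo animal and F1013 lay among them. Its log2 fold change was 6.82 ± 0.52 (SE; adjusted p = 2e-08), or 6.99 without F1013.

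RSAD2, the gene of the antiviral enzyme viperin, was at 21.1 CPM in F1013 and 1124 to 2829 in the others (median of all 9, 1699), against 14.8, 19.2 and 31.7 CPM in the placebo group. Its log2 fold change was 6.28 ± 0.45 (adjusted p = 2e-08). TMPRSS2, which encodes a transmembrane serine protease of epithelia, ranked after OASL by fold and differed 16.9-fold among the 8 animals. It was at 1.05 CPM in F1013, 20.7 in F1022 and 348 in F1018, against 0.285, 1.05 and 1.56 CPM in the placebo group, a log2 fold change of 6.58 ± 0.70 (adjusted p = 4e-07).

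The transcript LOC100129473, named in the annotation only by its locus number, ran from 0.149 CPM in F1013 to 17.6 in the next lowest animal and 67.0 in M1007, against 0.0826 to 1.0 CPM in the placebo group (log2 fold change 6.0 ± 0.57, adjusted p = 1.2e-07). For each of these 10 genes the 8 other wIFN-α animals were above the whole placebo range and F1013 was within or below it.

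**Figure D2:**
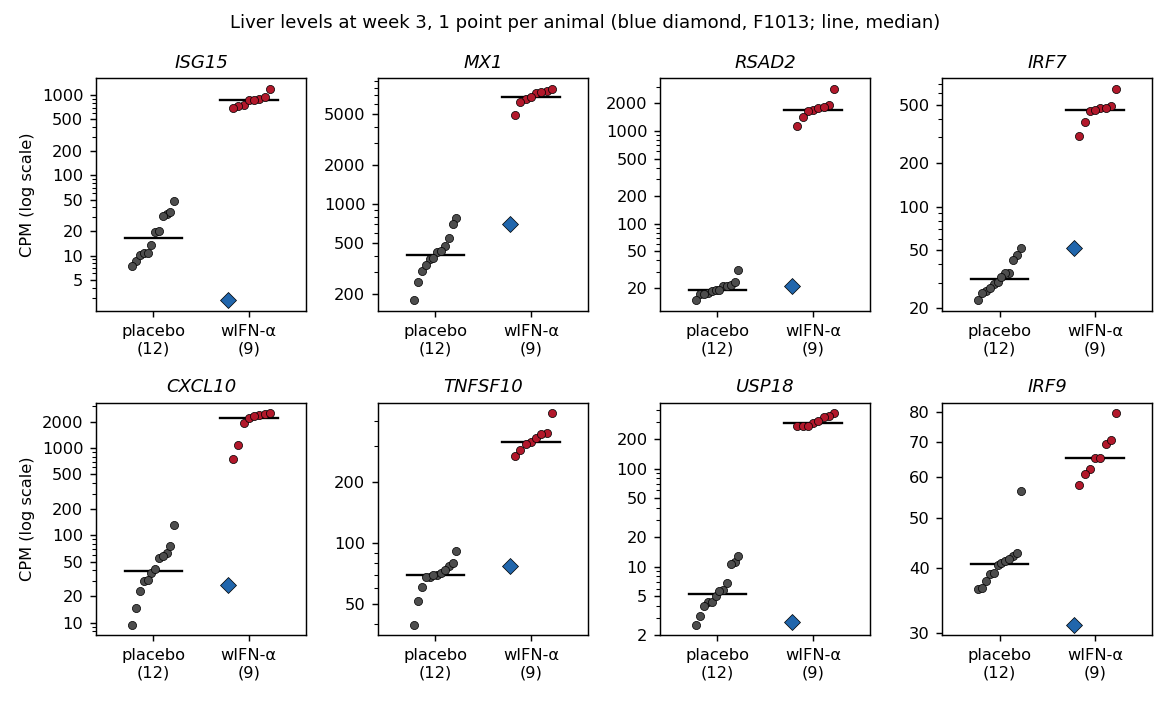
CPM (vertical axes, log scale) of 8 genes in each week 3 biopsy, 1 point per animal, placebo (12) at left and wIFN-α (9) at right, with the group median as a line and F1013 as a blue diamond. In each panel 8 wIFN-α points lie above all placebo points and F1013 lies among them, just above them (IRF7) or below them (ISG15, IRF9); its ISG15 level is 2.76 CPM against 695 to 1194 CPM in the other 8.

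During dosing, F1013 was at placebo levels of interferon genes in its week 3 biopsy alone. The mean log2(CPM + 1) over 34 MX, IFIT and other antiviral effector genes was 4.04 in its week 3 biopsy, within the placebo range of 3.73 to 4.31, and 6.9 to 7.36 in the other 8 wIFN-α animals. In its own earlier and later biopsies the same mean was 3.98 before treatment (week −3), 7.18 at week 0, 7.42 at week 7, 7.48 at week 11, 7.46 at week 15, and 4.24 and 4.27 in follow-up. ISG15 in F1013 followed the same course, with 5.88 CPM at week −3, 1215 at week 0, 2.7 at week 3 and 1074 at week 7. (Levels across weeks were scaled over all biopsies together and differ slightly from those scaled within week 3.) CXCL10 in F1013 went from 16.4 to 2496, 26.4 and 5171 CPM over those 4 biopsies, and IRF7 from 28.5 to 661, 51 and 677. Interferon genes were thus high in this animal after the first dose and at the higher dose, and low in the week 3 biopsy between them.

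Of the 1237 genes called higher without F1013, its level lay within the placebo range for 1072 (86.7%), above it for 107 and below it for 58. For the 8 animals that made these calls, the share within the placebo range was 16.5% to 28.1%. Over these genes the median log2 difference of F1013 from the placebo mean was 0.05, against 0.88 to 1.12 in the other animals. Among the 670 genes called lower without it, F1013 was within the placebo range for 570 (85.1%). Its week 3 biopsy was nonetheless its own: over the 300 genes used to match animals it correlated at r = 0.689 with its other biopsies and at most at 0.319 with those of any other animal, as a description over genes. The labels do not say whether the animal was dosed before this biopsy, and the cause was not tested.

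**Figure D3:**
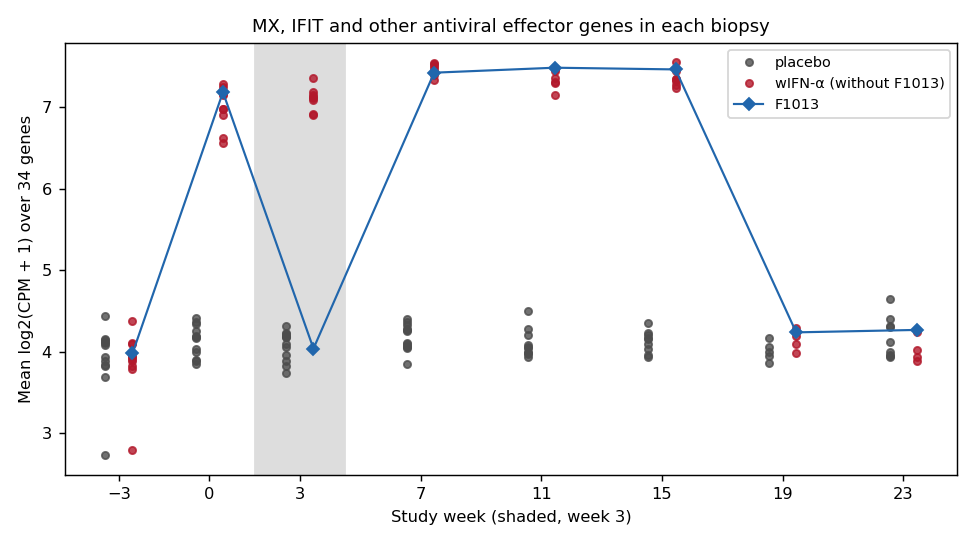
Mean log2(CPM + 1) over 34 antiviral effector genes (vertical axis) in each biopsy by study week (horizontal axis, week 3 shaded), with placebo biopsies in grey, wIFN-α biopsies in red and F1013 joined by a blue line. F1013 sits with the treated animals at weeks 0, 7, 11 and 15 (7.18 to 7.48) and with the placebo animals at week 3 (4.04).

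Among genes of the interferon receptor and its signalling pathway, IRF9 and IFNAR2 were among those that rose, and none fell. IRF9, the DNA-binding part of the complex, was at 31.1 CPM in F1013, below every placebo animal, and 57.9 to 79.5 in the others, all above the placebo range of 36.5 to 56.4. Its fold change of 1.51 lay at the threshold (log2 0.60 ± 0.12, adjusted p = 0.00071), and was 1.61 without F1013. IFNAR2, a receptor chain, was 1.71-fold higher (log2 0.77 ± 0.12, adjusted p = 8.8e-05).

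The other chain, IFNAR1, had a log2 fold change of −0.08 ± 0.15 (adjusted p = 0.71) and the kinase JAK1 one of 0.12 ± 0.087 (adjusted p = 0.35). STAT2, which joins IRF9 in the complex, did not pass the test either. It ranged from 1234 to 2705 CPM in the wIFN-α group, highest in F1013, and from 1385 to 5857 in the placebo group, highest in F1021 (log2 fold change −0.28 ± 0.22, adjusted p = 0.4).

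Among 9 feedback inhibitors 4 rose. USP18, which takes ISG15 off its targets and blocks the receptor, was at 2.76 CPM in F1013 and 271 to 367 in the others, against 2.56, 5.32 and 12.8 CPM in the placebo group. The 8 wIFN-α animals other than F1013 differed by 1.35-fold for USP18, and its log2 fold change was 5.43 ± 0.50 (adjusted p = 9.3e-08). SOCS1, which inhibits JAK kinases, was 1.72-fold higher (log2 0.78 ± 0.13, adjusted p = 0.00019). PIAS1, an inhibitor of STAT signalling, was 1.66-fold higher (log2 0.73 ± 0.10, adjusted p = 1.7e-05), and SOCS3 1.81-fold (log2 0.86 ± 0.27, adjusted p = 0.031).

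Of 8 interferon regulatory factors 5 rose. IRF7, which amplifies interferon production, was at 52.2 CPM in F1013, 304 in the next animal and 642 in F1014, against 22.6, 31.7 and 51.5 CPM in the placebo group. All 9 animals were above every placebo animal, F1013 by a margin of under 1 CPM (log2 fold change 3.62 ± 0.28, adjusted p = 2.2e-08). IRF1 (log2 1.34 ± 0.29), IRF8 (1.09 ± 0.20), IRF4 (1.02 ± 0.20) and IRF2 (0.71 ± 0.085) rose less, with adjusted p from 2.2e-06 to 0.0021.

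Antiviral effectors rose together. All 7 genes of the 2′-5′-oligoadenylate synthetase (OAS), protein kinase R and RNA-editing list rose, with a median log2 fold change of 4.12, and 30 of the 31 genes tested in the MX and IFIT list rose, with a median of 3.53. The median of all genes was −0.04. OASL ran from 3.36 CPM in F1013 to 742 in the next animal and 1379 in M1002, against 3.09, 6.25 and 18.6 CPM in the placebo group (log2 fold change 6.77 ± 0.60, adjusted p = 6.5e-08). OAS3, OAS2 and OAS1, which make short oligoadenylates on sensing double-stranded RNA, had log2 fold changes of 4.36 ± 0.37, 4.34 ± 0.37 and 4.12 ± 0.40. The editing enzyme gene ADAR rose by 2.05 ± 0.19 and EIF2AK2, the kinase that stops translation on double-stranded RNA, by 1.38 ± 0.16 on the log2 scale.

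MX1, a dynamin-like GTPase that traps viral nucleocapsids, was at 705 CPM in F1013 and 4895 to 7843 in the others, against 179, 407 and 779 CPM in the placebo group (log2 fold change 3.83 ± 0.32, adjusted p = 4.6e-08). IFIT2 (5.38 ± 0.40), IFIT1 (4.74 ± 0.36), IFIT5 (4.51 ± 0.32) and IFI44 (4.31 ± 0.34) rose more on the log2 scale, and IFIT5 was above the placebo range in all 9 animals. Among the animals other than F1013 the levels of these genes were close to each other: over the 37 genes called in both lists, the highest of the 8 was 1.14 to 3.16 times the lowest, with a median of 1.8. M1002 was the highest of the 8 for 17 of these genes, F1018 the lowest for 12 and M1012 the lowest for 11.

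ISG15 was at 2.76 CPM in F1013, below every placebo animal, and 695 to 1194 in the others, against 7.52, 16.7 and 47.3 CPM in the placebo group, a 37.3-fold difference (log2 5.22 ± 0.58, adjusted p = 7.4e-07). Of the 7 genes for ISG15 and its conjugation, 5 rose. The activating enzyme gene UBA7 rose 17.2-fold (log2 4.11 ± 0.41), the conjugating enzyme gene UBE2L6 2.74-fold (1.46 ± 0.23), and the ligase genes HERC6 13.4-fold (3.75 ± 0.30) and HERC5 6.66-fold (2.73 ± 0.31).

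Among 16 RNA and DNA sensors tested 14 rose, with a median log2 fold change of 2.16. TLR3, an endosomal receptor for double-stranded RNA, was at 6.68 CPM in F1013 and 85.6 to 193 in the others, against 1.81, 3.82 and 5.92 CPM in the placebo group; all 9 animals were above the placebo range (log2 fold change 4.8 ± 0.36, adjusted p = 2e-08). The helicase gene DDX60 rose by 5.16 ± 0.46, the sensor genes ZBP1 by 4.09 ± 0.40 and IFIH1, which encodes the cytosolic RNA receptor MDA5, by 4.02 ± 0.32 on the log2 scale. Of 8 interferon-responsive genes of the PARP group 7 rose, PARP10 by 3.28 ± 0.31, PARP14 by 3.04 ± 0.28 and DTX3L, the ligase that partners PARP9, by 2.57 ± 0.21.

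Of 17 listed genes with reported action on hepadnaviruses 11 could be tested, and 5 of these rose (median log2 fold change 0.37). They were SLFN11 (log2 2.52 ± 0.23), the membrane tether BST2 (2.52 ± 0.38), the exonuclease ISG20 (2.55 ± 0.27), the helicase MOV10 (0.77 ± 0.12) and ZC3HAV1, a member of the PARP list as well. SLFN11, an inhibitor of translation, was at 17.2 CPM in F1013 and 75.1 to 161 in the others, against 17.0, 18.8 and 22.2 CPM in the placebo group.

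**Figure D4:**
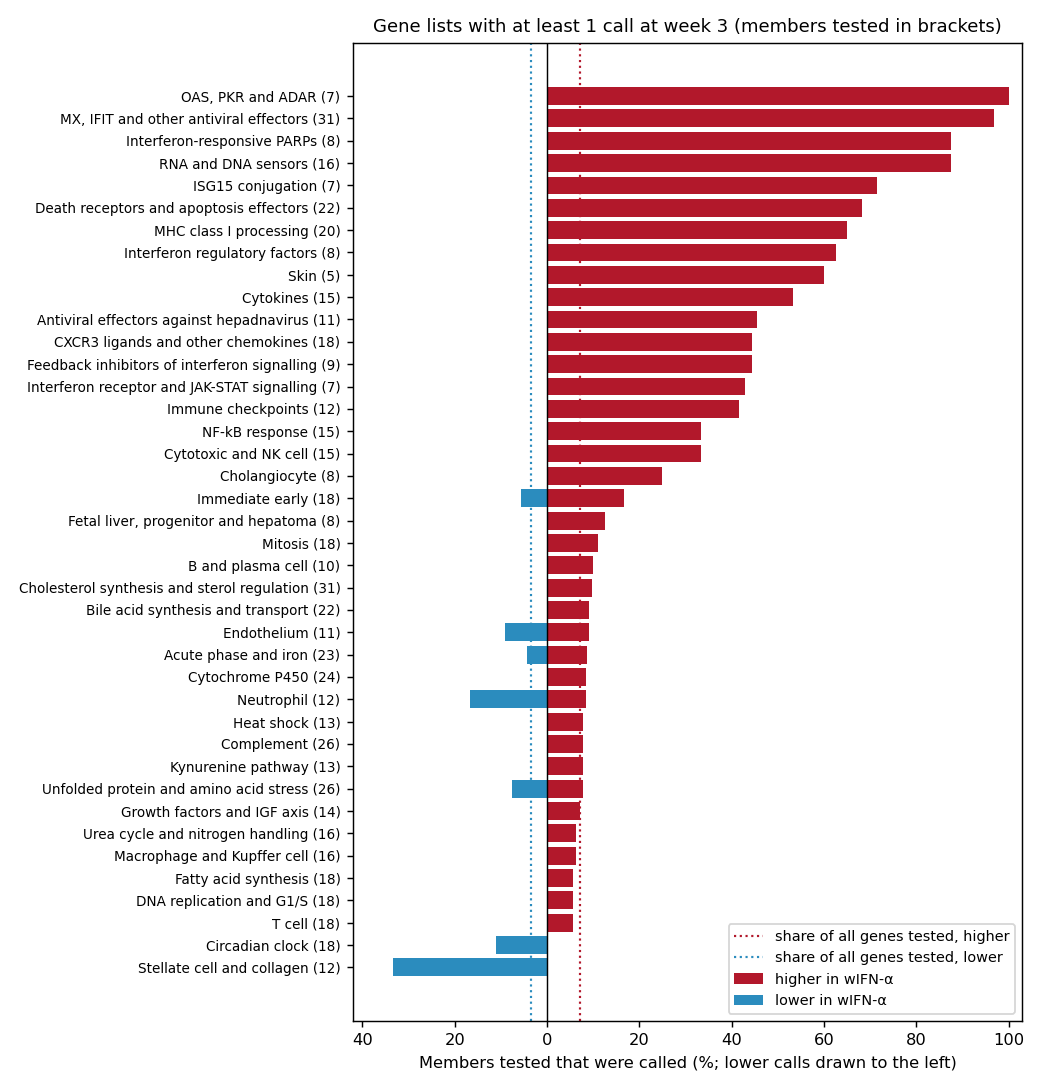
Percent of the tested members of each gene list that were called higher (red, right) or lower (blue, left) in wIFN-α than in placebo at week 3, for lists with at least 1 call, with the number of members tested in brackets. Dotted lines mark the shares of all genes tested, 7.24% higher and 3.54% lower; the antiviral effector lists reach 30 of 31 and 7 of 7 members, and the stellate cell and collagen list has 4 of 12 members lower.

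Antigen presentation by MHC class I rose and that by class II did not pass the test. Of 20 class I processing genes 13 rose (14 without F1013), with a median log2 fold change of 0.91. TAP1, which carries peptides into the endoplasmic reticulum, was at 34.7 CPM in F1013 and 216 to 330 in the others, against 24.9, 49.5 and 96.6 CPM in the placebo group (log2 fold change 2.22 ± 0.29, adjusted p = 6.5e-06). Its partner TAP2 rose by 1.87 ± 0.20 and the immunoproteasome genes PSMB9 and PSMB10 by 1.80 ± 0.28 and 1.54 ± 0.20. B2M, the invariant light chain, had a log2 fold change of 0.46 ± 0.18 (adjusted p = 0.075). None of 14 class II genes was called in either direction, and their median was −0.20.

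Of 18 chemokines and receptors tested 8 rose. CXCL10, a ligand that draws activated T cells through CXCR3, was at 27.0 CPM in F1013 and 747 to 2502 in the others, against 9.44, 39.3 and 130 CPM in the placebo group, a 37.1-fold difference (log2 5.21 ± 0.56, adjusted p = 5e-07). CXCL11, also a CXCR3 ligand, rose by 3.21 ± 0.48 and differed 8.02-fold among the 8 animals other than F1013. CXCL9, another CXCR3 ligand, did not pass the test: it was at 11.9, 62.3 and 352 CPM in the wIFN-α group, highest in M1002, and at 1.3, 40 and 125 CPM in the placebo group, so that the ranges overlapped (log2 fold change 0.94 ± 0.59, adjusted p = 0.27). The monocyte attractants CCL8 (2.21 ± 0.43), CCL7 (1.97 ± 0.54) and CCL2 (1.69 ± 0.31) and the membrane-bound CXCL16 (1.39 ± 0.23) rose.

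Of 15 cytokine genes 8 rose, among them TNF (log2 2.10 ± 0.37), TNFSF13B, which encodes the B cell survival factor BAFF (1.67 ± 0.32), IL18BP, a decoy for interleukin 18 (1.23 ± 0.25), and IL15 with its presenting receptor chain IL15RA (0.96 ± 0.23 and 0.80 ± 0.22). TNF was low in all samples, at 0.299 CPM in F1013 and 1.56 to 4.94 in the others, against 0.158 to 1.56 CPM in the placebo group. In the blocked fit 4 of the 15 cytokine genes were called, and 6 without F1016 and F1018.

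Lymphocyte genes were listed by cell type. In these bulk biopsies fewer cells of a type and less RNA per cell cannot be told apart. Of 18 T cell genes 1 rose, near the 7.24% of all genes called higher. This was CD3E, which went from 21.1, 36.0 and 55.2 CPM in the placebo group to 40.4, 61.5 and 83.3 in the wIFN-α group, lowest in F1013 (log2 0.76 ± 0.14, adjusted p = 0.00054). Of 15 cytotoxic and natural killer cell genes 5 rose (GZMA, PRF1, KLRD1, CTSW and FASLG). KLRD1, which encodes the CD94 chain of killer cell receptors, was at 14.3 CPM in F1013 and 22.6 to 31.4 in the others, against 9.32, 12.1 and 14.0 CPM in the placebo group. All 9 animals were above the placebo range (log2 fold change 1.00 ± 0.10, adjusted p = 2.6e-07). GZMA, a granule protease, was 3.27-fold higher (log2 1.71 ± 0.43, adjusted p = 0.0075) and PRF1, the pore-forming perforin, 2.17-fold (1.12 ± 0.30, adjusted p = 0.012). The blocked fit called 2 cytotoxic genes (3 without F1016 and F1018) and no T cell gene; the adjusted p of CD3E was 0.19, and 0.011 without F1016 and F1018. In the B and plasma cell list 1 of 10 genes rose (CD22, 0.99 ± 0.29; adjusted p = 0.32 in the blocked fit) and in the macrophage and Kupffer cell list 1 of 16 (SIGLEC1, 0.85 ± 0.27; adjusted p = 0.078 with the lane in the model), again near the share of all genes.

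Of 12 immune checkpoint genes 5 rose. CD274, which encodes PD-L1, was at 2.39 CPM in F1013, 8.99 at the median and 15.7 in M1007, against 2.11, 3.11 and 7.39 CPM in the placebo group. Of the 9 animals 7 were above the placebo range, whose top was F1021 (log2 fold change 1.39 ± 0.27, adjusted p = 0.00064), and in the blocked fit the adjusted p was 0.06 (0.0069 without F1016 and F1018). LGALS9, a galectin that binds TIM-3, rose 5.5-fold (log2 2.46 ± 0.25), CD86 by 1.14 ± 0.24 and LAG3 by 0.66 ± 0.20. LAG3 did not pass with the lane in the model (adjusted p = 0.091) or in the blocked fit (0.44). The blocked fit called 3 of the 12 checkpoint genes, and 4 without F1016 and F1018. IDO1, the tryptophan-degrading enzyme, was at 1.12 CPM in F1013 and 15.5 to 32.8 in the others, against 1.11, 2.31 and 11.2 CPM in the placebo group (2.57 ± 0.47, adjusted p = 0.0004), and was the 1 gene of 13 in the kynurenine pathway that rose.

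Cell death genes rose broadly, 15 of 22 with none lower and a median log2 fold change of 0.77; in the blocked fit 9 were called higher, and 12 without F1016 and F1018. TNFSF10 (TRAIL) was at 77.1 CPM in F1013 and 267 to 435 in the others, against 39.7, 69.9 and 91.6 CPM in the placebo group (log2 fold change 2.14 ± 0.20, adjusted p = 9.8e-08). MLKL, the executioner of necroptosis, was at 9.93 CPM in F1013 and 91.8 to 146 in the others, against 3.95, 7.45 and 14.3 CPM in the placebo group (3.61 ± 0.32, adjusted p = 6.5e-08). The death receptor gene FAS rose 2.38-fold (1.25 ± 0.15) and CASP1, the inflammatory caspase, 4.29-fold (2.10 ± 0.23).

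Metabolic and housekeeping lists held no calls or a share called higher near the 7.24% of all genes. No gene was called in the lists for phase II conjugation (26), fatty acid oxidation (25), gluconeogenesis (16), coagulation (23), liver-enriched transcription factors (20), the respiratory chain (30) or ribosomal proteins (49), 188 distinct genes in all. These lists were grouped because they held no call, so their total cannot be compared with the 10.8% of all genes. Their median log2 fold changes ran from −0.27 (ribosomal proteins) to 0.12 (phase II). Without F1013 there were 1 to 3 calls in 3 of these lists (fatty acid oxidation, gluconeogenesis and transcription factors). Among 24 cytochrome P450 genes 2 rose. One was CYP2R1, a vitamin D 25-hydroxylase, at 1.64 CPM in F1013 and 6.62 to 18.8 in the others, against 0.789, 2.52 and 3.25 CPM in the placebo group (log2 fold change 2.14 ± 0.28, adjusted p = 8e-06), and the other CYP2J2 (0.89 ± 0.19). GLUL, the glutamine synthetase of perivenous hepatocytes, rose from a placebo median of 771 CPM to 1358 (0.98 ± 0.17, adjusted p = 0.00022), with 8 of 9 animals above the placebo range. In bile acid transport ABCC3, a basolateral efflux pump, rose by 1.02 ± 0.24 and the phospholipid pump ABCB4 by 0.66 ± 0.15. In the complement list CFB (0.70 ± 0.16) and MBL2 (0.81 ± 0.19) rose of 26 genes. The blocked fit called none of these bile acid and complement genes (adjusted p = 0.37, 0.47, 0.6 and 0.39 in the order given), and all 4 passed in it without F1016 and F1018. MUC1, listed with bile duct markers, rose by 3.77 ± 0.61 from a placebo median of 0.0936 CPM.

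Of 31 genes of cholesterol synthesis and sterol regulation 3 rose, near the 7.24% of all genes called higher: IDI1 (log2 1.88 ± 0.44), HSD17B7 (1.76 ± 0.42) and INSIG1 (1.29 ± 0.39). The first 2 encode enzymes of the pathway and INSIG1 a sterol-sensing brake on it. F1013 did not stand apart here: IDI1 was at 64.0 CPM in F1013, 27.6 in M1007 and 431 in M1002, against 5.74, 41.9 and 85.0 CPM in the placebo group. With the lane in the model none of the 3 passed (adjusted p = 0.29, 0.22 and 0.48), 2 other members were called lower, and the list's median went from 0.27 to −0.08. In the fatty acid synthesis list ACLY alone rose of 18 (1.25 ± 0.37, adjusted p = 0.021), and it did not pass with the lane in the model (adjusted p = 0.46). The part of the lane in these differences was not tested further.

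Several of the largest decreases were in genes of the extracellular matrix. The 10 lowest log2 fold changes, again among genes averaging 1 CPM or more, were those of CTHRC1, SFRP2, PFKFB3, LRRC17, CPZ, COL1A1, UBAP1L, ENTPD3, FBXO32 and COL1A2, from −4.11 to −2.76. CTHRC1, a secreted protein of repairing matrix, was at 0.0665, 0.196 and 1.34 CPM in the wIFN-α group and 0.0368, 2.28 and 25.5 in the placebo group (log2 fold change −4.11 ± 0.97, adjusted p = 0.0044). COL1A1, which encodes the main chain of type I collagen, was at 21.4, 31.5 and 538 CPM in the wIFN-α group and 14.3, 799 and 4565 in the placebo group (−3.15 ± 1.00, adjusted p = 0.03). The ranges of both genes overlapped over the whole wIFN-α group, since some placebo biopsies were as low as any treated one. F1013, whose week 3 biopsy showed no induction of interferon genes, held the lowest COL1A1 level of its group. That is a single biopsy, and the cause of the decreases was not tested.

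In the stellate cell and collagen list 4 of 12 genes fell (COL1A1, COL1A2, COL3A1 and LUM; median log2 fold change −1.03), 2 without F1013 and none in the blocked fit, with or without F1016 and F1018. SFRP2 (−3.92 ± 1.14), LRRC17 (−3.53 ± 0.96) and CPZ (−3.18 ± 1.04) were highest in the placebo animal M1005. None of the 19 muscle genes tested was called, with a median of −1.87. PFKFB3, a regulator of glycolysis, was at 1040 CPM in F1021 alone, the biopsy with 11.4% of reads on muscle genes, and 4.19 at the wIFN-α median; its log2 fold change of −3.80 ± 1.25 (adjusted p = 0.036) became −0.61 (adjusted p = 0.51) without F1021. FBXO32, a ubiquitin ligase of muscle atrophy, went in the same way from −2.85 ± 0.95 to −1.56 (adjusted p = 0.14).

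MMP9 fell outside that pattern. This gelatinase, listed with neutrophil genes, was at 0.385, 1.45 and 3.51 CPM in the wIFN-α group and 3.05, 5.52 and 21.1 in the placebo group. The highest wIFN-α value was that of F1013, and the other 8 animals were below every placebo animal (log2 fold change −2.31 ± 0.38, adjusted p = 0.00015). It fell by 2.47 with the lane in the model and by 2.10 in the blocked fit on the log2 scale. In the same list LCN2 fell (−1.37 ± 0.44) and CSF3R, a growth factor receptor, rose (1.32 ± 0.33). LCN2 did not pass with the lane in the model or in the blocked fit (adjusted p = 0.12 and 0.52). CSF3R passed in both (0.0094 and 0.007). The endothelial receptor gene KDR fell (−0.71 ± 0.25) and LYVE1, a marker of sinusoidal and lymphatic endothelium, rose (0.91 ± 0.23). Over all genes, 52 (0.347%) had all 9 wIFN-α animals above every placebo animal and 15 had all 9 below; for the 8 animals without F1013 the counts were 603 (4.02%) and 57 (0.38%). Of those 603 genes, F1013 lay within the placebo range for 522.

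The calls in skin genes rested on 1 biopsy. KRT14, a basal keratinocyte keratin, was at 513 CPM in M1012 and 2.47 to 17.9 CPM in the rest of both groups. Its log2 fold change of 3.24 ± 0.90 (adjusted p = 0.014) became −0.41 (adjusted p = 0.33) without M1012. Of the 5 genes of the skin list that were tested 3 were called (KRT10, KRT14 and DSC1), and none with the lane in the model. FLG2, outside that list, was called too (4.13 ± 1.25, adjusted p = 0.024) and was at 467 CPM in M1012. It did not pass with the lane in the model (adjusted p = 0.79).

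The week 3 response was set beside the first 20 µg dose (week 0, 11 wIFN-α and 12 placebo biopsies) and the first biopsy after the rise to 100 µg (week 7, 9 and 12). Against the placebo biopsies of the same week, 10.3% of genes were higher and 8.15% lower at week 0, and 11.4% higher and 10.1% lower at week 7. The shares at week 3 were 7.24% and 3.54%, or 8.21% and 4.45% without F1013. The OAS list was called in full at each week, and the MX and IFIT list in 31 of 32 genes at week 0 and 32 of 32 at week 7. Log2 fold changes at weeks 0, 3 and 7 were 5.10, 5.22 and 5.71 for ISG15, 3.59, 3.83 and 3.48 for MX1 and 5.19, 5.21 and 6.18 for CXCL10. The difference between weeks passed the test for none of these 3 genes (adjusted p from 0.54 to 1.0).

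**Figure D5:**
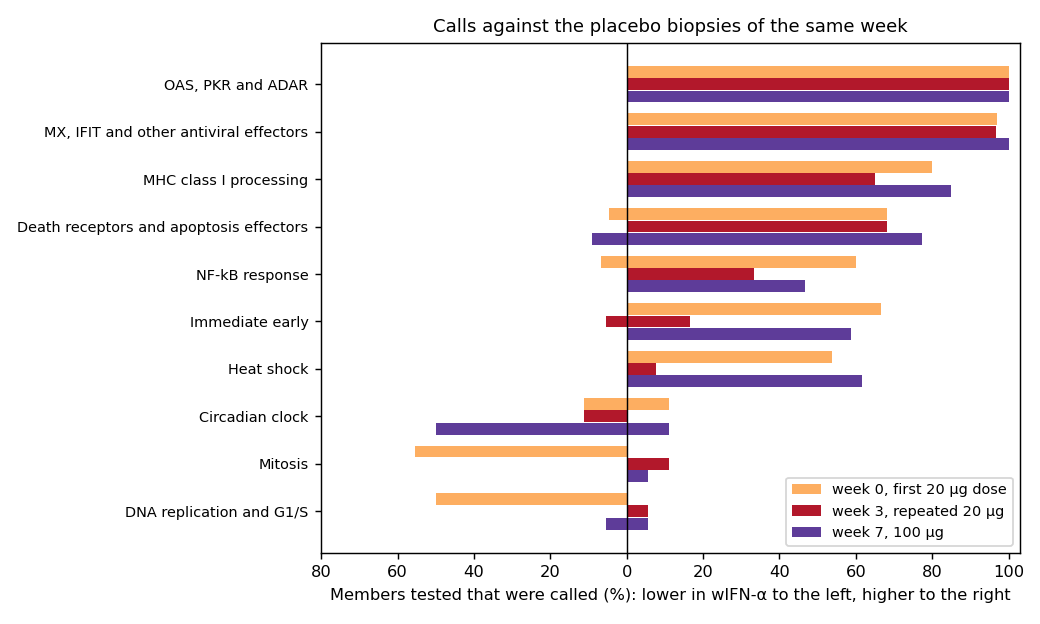
Percent of the tested members of 10 gene lists called higher (right) or lower (left) in wIFN-α against the placebo biopsies of the same week, at week 0 (orange), week 3 (red) and week 7 (purple). Heat shock genes were called higher in 7, 1 and 8 of 13, and mitosis genes lower in 10 of 18 at week 0 alone.

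Tested directly, the week 3 effect differed from the week 0 effect for 59 of 15406 genes (0.383%) at an adjusted p under 0.05, 50 of them more positive at week 3, and from the week 7 effect for 45 of 15428 (0.292%). At an unadjusted p under 0.05 the numbers were 2132 and 1957. The most positive differences were in skin genes (KRT1, DSG1, SPINK5, FLG2, ASPRV1). Their effect was of opposite sign at the weeks compared: the KRT1 effect on the log2 scale was 4.73 in the week 3 comparison, against −8.91 and −8.48 in those of weeks 0 and 7. Skin reads made up 0.997% in M1012 of the wIFN-α group at week 3, and in the placebo group 0.637% in M1008 at week 0 and 0.526% in M1009 at week 7. Without M1012 the counts were 14 and 11. Both counts moved with single animals. From week 0 it was 34 without F1013, 32 without F1021 and 91 without M1002. From week 7 it was 68 without M1002, 20 without F1013, 15 without F1021, 14 without M1003, 10 to 12 without M1007, F1018, F1020 or F1022, and 5 without F1014. With the lane in the model 1 and 0 genes were called.

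The most negative differences from week 0 were in ADAMTS17, a metalloprotease of the matrix (−2.0 ± 0.49), CTSK, the protease cathepsin K (−1.61 ± 0.38), and TNFAIP3, an inhibitor of NF-κB (−1.41 ± 0.34), with adjusted p from 0.044 to 0.048. TNFAIP3 was higher at each week, by 2.12 on the log2 scale at week 0, 0.71 at week 3 and 1.28 at week 7. From week 7 the most negative were LOC100506027 (−3.09 ± 0.72), ADAMTS17 (−2.16 ± 0.50), the vasodilator peptide gene ADM (−1.64 ± 0.32), HERC5 (−1.62 ± 0.32) and FNDC5 (−1.60 ± 0.37), with adjusted p from 0.023 to 0.044. HERC5, the ISG15 ligase gene, rose by 3.07, 2.73 and 4.35 on the log2 scale at weeks 0, 3 and 7.

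Since the same animals were biopsied at each week, the differences were also fitted with the animal as a block. They then numbered 166 (1.08%) from week 0, with 97 more positive at week 3 (0.632%), and 411 (2.66%) from week 7, with 255 more negative at week 3 (1.65%). From week 0 the blocked test called 4 genes (0.026%) without F1013. No other animal was left out of the blocked fits between weeks, so the part of F1013 in particular was not tested. From week 7 the calls more negative at week 3 were 178 (1.15%) without F1013. Among the differences named above, ADAMTS17 and CTSK did not pass the blocked test from week 0 (adjusted p = 0.061 and 0.07). KRT1, DSG1, FLG2 and ASPRV1 did not pass it either (0.83, 0.65, 0.79 and 0.75). In the NF-κB response list 1 gene passed it from week 0, BIRC3 (0.04). From week 7 LOC100506027 did not pass the blocked test (adjusted p = 0.11), nor did KRT1, DSG1 and FLG2 (0.92, 0.66 and 0.97). ADAMTS17, ADM, HERC5 and FNDC5 did (0.026, 0.023, 0.016 and 0.017). Of all 25 differences named for single genes in this report, 8 kept their call with the block, and 5 with the block without F1013.

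Cell cycle genes were often called lower at week 0 and seldom called at week 3. In the direct test without the block, 2 mitosis genes and 1 DNA replication gene differed between these weeks. Of 18 mitosis genes 10 fell at week 0 (median log2 fold change −0.76), 2 rose at week 3 (CDK1, 0.91 ± 0.23, and CDC20, 1.07 ± 0.28; median 0.51) and 1 rose at week 7. With the lane in the model, and in the blocked fit from week −3, none of the 18 was called at week 3. Of 18 DNA replication genes 9 fell at week 0 (median −0.59) and 1 rose at week 3 (CCNE2, 1.11 ± 0.21; adjusted p = 0.11 in the blocked fit). TOP2A, the topoisomerase of dividing cells, was at 5.37, 10.3 and 13 CPM in the wIFN-α group at week 3 and 2.29, 7.15 and 13.3 in the placebo group. Its log2 fold change was −1.24 at week 0 and 0.38 at week 3, a difference of 1.61 ± 0.39 (adjusted p = 0.048). The blocked test called 7 mitosis and 3 replication genes more positive at week 3, and none of either without F1013.

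Stress-response genes were counted at the same 3 weeks. Of 13 heat shock genes 7 were higher at week 0 (median 0.90), 1 at week 3 (DNAJA1, 0.72 ± 0.17; median 0.18) and 8 at week 7 (median 0.96). For the difference from week 7, 3 of them passed the blocked test, with F1013 and without it. DNAJB1, a co-chaperone, had log2 fold changes of 1.62, 0.68 and 1.55 (adjusted p = 0.13 at week 3). Of 18 immediate early genes 12 were higher at week 0 and 3 at week 3 (7 without F1013), and 10 of 17 at week 7; no member differed between weeks 0 and 3 in either fit. ZFP36, which destabilises cytokine mRNAs, rose by 2.37, 1.53 and 1.70, and KLF6 by 1.5, 1.05 and 1.32. FOSB was the member that fell at week 3 (−2.10 ± 0.58, adjusted p = 0.014).

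Of 15 NF-κB response genes 9, 5 and 7 were higher at weeks 0, 3 and 7. RELB, a subunit of NF-κB, rose by 2.08, 1.33 and 2.04 and ICAM1, an adhesion molecule, by 1.18, 0.90 and 0.98. For BIRC3, NFKB1 and RELB the rise was smaller at week 3 than at week 7 in the blocked fit (differences −0.44, −0.48 and −0.78, adjusted p = 0.018, 0.011 and 0.047), and without the block these differences had adjusted p = 0.31, 0.15 and 0.36. In the blocked fit without F1013 the adjusted p of RELB was 0.086, and BIRC3 and NFKB1 passed. Of 20 MHC class I genes 16, 13 and 17 were higher at weeks 0, 3 and 7, and 6 were more negative at week 3 than at week 7 in the blocked fit (4 without F1013). Of 18 clock genes 2 fell at week 3 (CRY1, −0.60 ± 0.15, and HLF, −0.75 ± 0.26; neither with the lane in the model), and 9 fell at week 7.

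The change from week −3 to week 3 within each animal, compared between the groups, was higher in wIFN-α for 839 genes (5.45%) and lower for 185 (1.2%). The 7 OAS list genes and 30 of 31 MX and IFIT genes were called in this fit as well. ISG15 rose by 5.59 and IRF7 by 3.88 on the log2 scale, while COL1A1 had −3.56 with an adjusted p of 0.13. Without F1016 and F1018, whose week −3 biopsies held almost no hepatocyte reads, 1084 genes were higher and 627 lower.

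The WHV transcript levels of the groups overlapped. The viral RNAs are polyadenylated and were counted in the same libraries. Virus reads numbered 15149 (M1003), 19940 and 34469 (M1007) per 1000000 gene reads in the wIFN-α group (lowest, median, highest) and 8943 (F1021), 21916 and 38236 (M1010) in the placebo group, so that the wIFN-α range lay inside the placebo range. The mean log2 value was 14.33 ± 0.38 (SD, n = 9) in wIFN-α and 14.27 ± 0.59 (SD, n = 12) in placebo. The difference of 0.06 did not pass a two-sided exact permutation test over 293930 splits of the animals (p = 0.787; without F1013 0.05, exact p = 0.838), and a difference within the spread between animals was not detectable with these numbers. For the change from week −3 the difference was 0.49 (exact p = 0.587), and 0.09 without F1016 and F1018 (exact p = 0.736).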

How the data were processed

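Liver biopsies were profiled by poly(A) RNA sequencing with paired-end 50-base reads. The authors mapped reads, with unique hits given priority, to their woodchuck transcriptome assembly and deposited expected counts per gene and, beside them, RPKM values. Per the labels, CASAVA, FastQC, Bowtie, SAMtools and DESeq were used, with no versions given. The deposited expected counts were used, summed over runs of a biopsy and rounded, and the deposited RPKM values were not used. Virus rows were kept out of gene totals, CPM use TMM-scaled library sizes, and tissue percentages are shares of unscaled reads on genes. There were 0 columns left without a sample. The members, gene lists and tests were chosen with earlier results of these data known.

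wIFN-α and placebo were compared by edgeR 4.0.16 (R 4.3.3) with filterByExpr, TMM scaling and the quasi-likelihood test, with calls at a Benjamini-Hochberg adjusted p below 0.05 and more than 1.5-fold change. Differences between weeks were interaction terms at the adjusted p alone. Every adjusted p is from edgeR over all genes tested unless another tool is named. WHV reads were compared by an exact permutation test. The genes named were up to 6 members of each of 51 lists with the smallest adjusted p and those the background turns on, the 10 highest and 10 lowest fold changes at a mean of at least 1 CPM, and the 5 most positive and 5 most negative differences between weeks; other list members are given with their values.

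The animal number in the labels pairs biopsies across weeks. Deviations from group means correlated between biopsies of the same animal with a median of 0.279 (weeks −3 and 3), 0.445 (weeks 0 and 3) and 0.303 (weeks 7 and 3), and between different animals with −0.014 to 0.01. Alternatives were DESeq2 1.42.0, limma-voom (limma 3.58.1), RLE scaling, no filter, a fold change above 2, lane or sex as covariates, the deepest run alone, M1004 included, 1 fit over all weeks, the animal as a block, and leaving out each animal. Fits without F1013 in the block, without F1016 and F1018, and without F1013 and F1021 together were added after the data were seen. Gene-level depth of 14261509 reads or more limits mainly genes under 1 CPM. Repeat runs of a biopsy were counted as 1 sample. A description of promoter motifs was not run, and genome positions were not analysed here. Results for some genes are not reported here.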

Additional observations from a re-analysis of the deposited data

Results flagged for a closer look

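In the wIFN-α group at week 3, the gap between the most extreme animal and its neighbour was compared with the whole range of the 9 animals, where a ratio above Dixon's 95% critical value marks an animal far from the others and chance marks about 1 in 20 groups. Of 33 measures 25 passed. F1013 was the low animal in 22 of them, from 1 biopsy; it had been singled out for its lack of interferon-gene induction, so its ratios describe that biopsy and are no test of it. The ratio was 0.938 for USP18, 0.911 for ISG15, 0.897 for OASL, 0.812 for RSAD2, 0.804 for MX1 and 0.793 for IFIT3, and 0.862 for the mean of the 34 antiviral effector genes. It was 0.827 for MLKL, 0.811 for TAP1, 0.781 for LOC100129473, 0.779 for IDO1, 0.758 for TLR3 and 0.733 for CXCL10. It was 0.717 for TNFSF10, 0.709 for DDX60, 0.703 for IRF7, 0.664 for IRF9 and 0.659 for SLFN11, and 0.581 for KLRD1, 0.571 for CYP2R1, 0.514 for TMPRSS2 and 0.505 for CD274. M1012 was the high animal for the share of reads on skin genes (0.998), for KRT14 (0.875) and for the share on stellate cell and collagen genes (0.555).

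The wIFN-α effect at week 3 differed from that at week 0 for 59 genes and from that at week 7 for 45, by an edgeR interaction test. The most positive were mainly in skin genes, whose reads were high in M1012 at week 3 (0.997%) and in placebo biopsies at week 0 (M1008, 0.637%) and week 7 (M1009, 0.526%). On the log2 scale, against weeks 0 and 7, KRT1 had 13.58 and 13.18, DSG1 9.28 and 10.34, and SPINK5 9.14 and 8.63. FLG2 had 8.76 and 8.65, KRT14 6.65 and 5.6, and CYP1B1 7.42 and 7.63. CYP1B1 and FLG2 are among the genes here that are not members of the skin list. ASPRV1 differed from week 0 by 8.15. TOP2A differed from week 0 by 1.61. Negative differences from week 0 were −2.0 for ADAMTS17, −1.61 for CTSK, −1.41 for TNFAIP3, −0.5 for TMEM141 and −0.4 for HNRNPCL1. Negative differences from week 7 were −3.09 for LOC100506027, −2.16 for ADAMTS17, −1.64 for ADM, −1.62 for HERC5, −1.6 for FNDC5 and −0.45 for HNRNPCL1.

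M1004, the wIFN-α animal left out of the main comparisons, had 1105 ISG15 reads per 1000000 gene reads at week 3, above the highest placebo animal (46.2).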

How the results depend on the processing

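At week 3, 1618 genes were called. The fit with the animal as a block, which pairs weeks −3 and 3 and is a separate set of calls, gave 1024 (1711 without F1016 and F1018). At a fold change above 2 it was 790, where 594 were higher; without F1013, 909 passed that fold. Leaving out each animal gave 1421 (without M1003) to 1907 (without F1013) calls, and 1027 to 1237 higher. DESeq2, limma-voom, RLE scaling, no filter, sex, the deepest run, M1004 and 1 fit over all weeks kept the count within 1.5 times.

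The difference from week 0 (59 genes) became 111 with DESeq2, 14 with limma-voom, 238 without the filter, 1 with the lane, 30 in animals with both biopsies, 166 with the block and 4 with the block without F1013, and 14 (without M1012) to 91 (without M1002) leaving out 1 animal. The difference from week 7 (45 genes) became 119, 6, 135 and 0 in the first 4 of these, 411 with the block and 246 with the block without F1013, and 5 (without F1014) to 68 (without M1002) leaving out 1 animal. The cause was not tested. The WHV difference of 0.06 turned to −0.03 without M1007, −0.01 without F1017, −0.04 without F1021 and −0.09 with M1004, and ran from −0.04 to 0.15 leaving out 1 animal.

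Among single genes the direction turned for skin genes. KRT1 at week 3 was −2.28 with DESeq2, −0.23 with the block (also without F1013), −0.03 with the block without F1016 and F1018, and −4.85 without M1012. FLG2 was −0.85 with DESeq2 and −1.59 without M1012, and KRT14 −0.4 and −0.41. Against week 7, KRT1 was −2.6 with DESeq2, −0.46 with the block and −0.42 with the block without F1013, FLG2 −1.02 and −0.12 with DESeq2 and the block, and KRT14 −0.59 with DESeq2. Leaving out 1 animal, the highest values at week 3 came without the placebo animal F1017: 7.17 for KRT1, 4.83 for FLG2 and 3.5 for KRT14. Counts below 1 CPM limit what depth can show.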
